A study of Mus musculus with 12 samples.

Results

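Serotonin synthesis and lactogen signalling meet in the beta cell, and 10 genes of this circuit, among 23104 genes measured in both sexes, were followed in islets of Rnf20 knockout mice. The genes were Tph1, Tph2, Ddc, Slc18a1, Slc18a2, Prlr, Ghr, Cish, Stat5a and Stat5b, each found by its name in the female and in the male table. RNA of hand-picked whole islets had been sequenced in 12 libraries, 3 in each of 4 groups. The knockout groups, female and male, had the genotype Rnf20 F/F with the transgene Pdx1 Cre ER, a tamoxifen-dependent recombinase under the Pdx1 promoter, and the control groups were Rnf20 Flox Control mice of the same sex. Mice of all 4 groups, controls included, had been gavaged 5 times with tamoxifen at 150 ug/g when 4 weeks old. No Cre is named in the controls, and effects of the transgene and of the deletion cannot be told apart. Some Cre transgenes carry a human growth hormone sequence, whose product also binds the prolactin receptor. Whether this one does is not given in the sources used here, and counts of mouse genes do not measure it. Whether separate animals gave the libraries is not stated, so the p-values measure the spread between these libraries. Rnf20 encodes a ubiquitin ligase that marks histone H2B in transcribed genes.

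Serotonin is made from tryptophan by tryptophan hydroxylase, the rate-limiting step, of which Tph1 encodes the form of peripheral tissues and Tph2 the form of neurons, and then by the decarboxylase encoded by Ddc. Vesicular monoamine transporters, encoded by Slc18a1 and Slc18a2, load it into secretory granules. Prlr encodes the receptor for prolactin and placental lactogens and Ghr that for growth hormone. Both receptors signal through the kinase JAK2 to the transcription factors STAT5A and STAT5B, and Cish is a direct STAT5 target that feeds back on these receptors. In pregnancy, lactogens acting on beta cells raise Tph1 and islet serotonin, which is why the synthesis genes and the receptor genes are described together.

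Tph1 rose in the knockouts of both sexes from a very low level, 8.56-fold in females and 11.1-fold in males (7.17-fold as a ratio of male means). Prlr fell 2.47-fold and 2.56-fold. Ghr rose in both sexes by a smaller amount. Tph2 passed the test in females and Ddc in males, while in the authors' deposited results both genes were below 0.05 in both sexes. Cish, Stat5a, Stat5b, Slc18a1 and Slc18a2 passed the test in neither sex. Values are normalized counts (read counts divided by a size factor per library, scaled within each sex). Genes were called where the Benjamini-Hochberg adjusted p from limma over all genes tested was below 0.05. In females 4 of the 10 genes were called, 3 higher and 1 lower, where 20.6% of 18142 genes were called (9.9% higher and 10.7% lower), and 2 were called without female knockout 2, with the acinar marker level as a covariate or in a fit over all 12 libraries. In males 4 of 10 were called, 2 higher and 2 lower, where 13.2% of 18010 genes were (6.08% higher and 7.09% lower), and 2 were called without male knockout 1 or knockout 3. The median log2 fold change of the 10 genes, knockout over control, was 0.12 in females and 0.13 in males, beside -0.01 and 0.06 over all genes tested. Tph1 and Ghr were called higher and Prlr lower in both sexes.

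**Figure D1:**
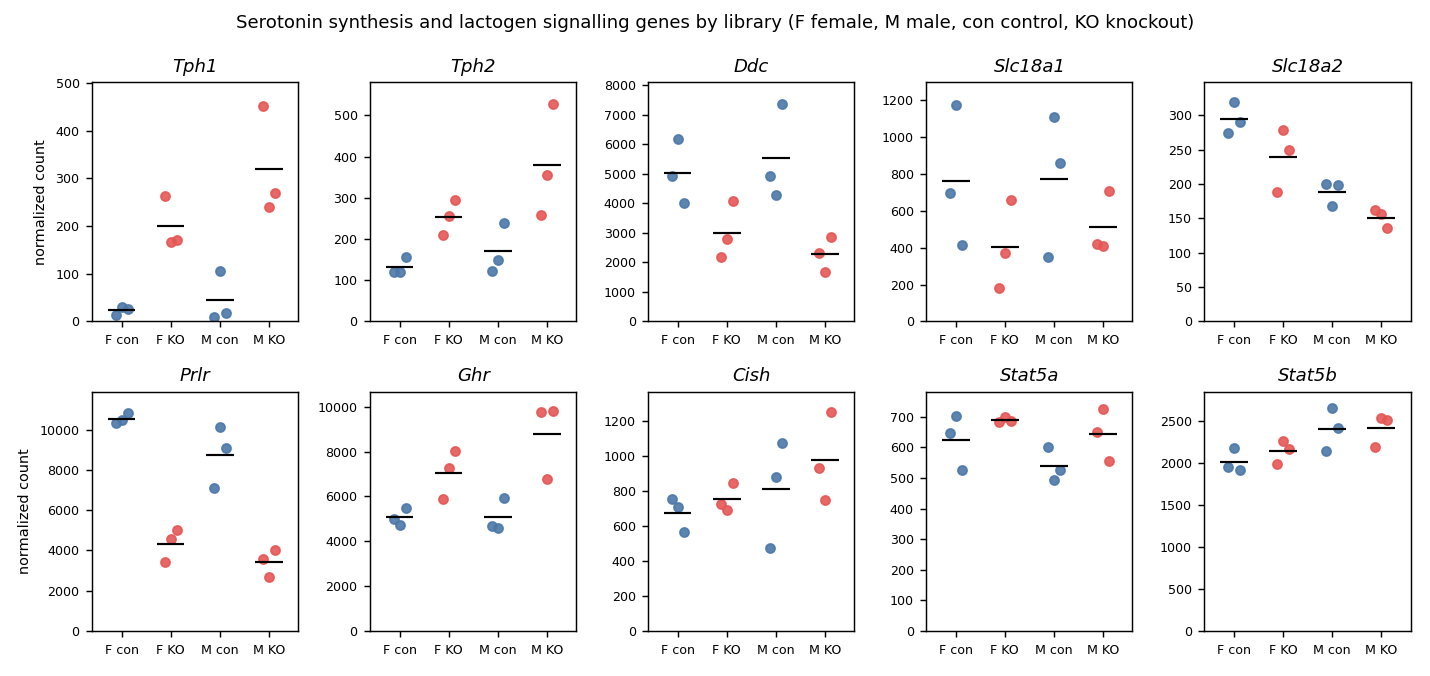
Normalized counts (linear axes from 0) of the 10 genes in each library, with blue points for controls, red points for knockouts and a bar at the mean of 3 libraries. In Tph1, Tph2, Prlr and Ghr the knockout points do not overlap the control points in either sex, and in Cish, Stat5a and Stat5b they overlap.

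The libraries held 19759712 to 56086810 assigned reads. Rnf20 itself was lower in every knockout library, with log2 fold changes of -1.04 in females and -1.38 in males. Male control 2 stood apart, with the fewest reads and 17701 genes with reads beside 22287 to 24269 in the other libraries. Male log2 fold changes of the 10 genes without it follow after the results by gene. Summed counts of 9 beta cell markers were 13.0 to 18.4% of all normalized counts in female controls and 11.4 to 11.8% in female knockouts, and 16.4 to 21.2% and 10.5 to 15.5% in males, and every library held each of the 9. Of these markers 7 were called lower and 1 higher in females, and 5 lower and 1 higher in males. Their median log2 fold change was -1.22 in females and -1.58 in males. Beside these stood -1.30 and -1.36 for Prlr, and -0.77 (not called) and -1.26 for Ddc. In females most of the sum was Ins2, with a mean of 3976640 in controls and a log2 fold change of -0.37 (limma adjusted p = 0.166). Of 4 delta cell markers 3 were called lower in each sex, and their share was 0.184 to 0.211% in the female controls against 0.0909 to 0.104% in the knockouts, and among males 0.150 to 0.222% against 0.0679 to 0.105%. In bulk islets, fewer cells of a type and less RNA per cell cannot be told apart, and the part of these shifts in the values of any gene was not tested. Acinar markers, an exocrine remainder of the islet picking, were at 1.56 to 3.82% in the female controls against 1.22 to 1.67% in the knockouts, and among males at 0.361 to 5.41% against 0.868 to 4.17%.

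Start regions are shown for Tph1 and Prlr, the 2 of the 10 genes with the largest changes called in both sexes, and for Tph2, the companion of Tph1. Of the 3 regions of Prlr only the one that holds the letters TTCNNNGAA, the core that STAT5 binds, is shown. The letters are in capitals where they occur. These letters are their own reverse complement, so 1 search covers both strands. Sequences are the 250 bases before annotated starts in RefSeq (GRCm38.p6), read in the direction of transcription, and 9 of the 10 genes matched an entry, with 16 start regions between them. Tph1 has 2, at chr7:46672538-46672787 and chr7:46667378-46667627 on the minus strand, Tph2 has 1, at chr10:115185023-115185272 on the minus strand, and the second of the 3 for Prlr lies at chr15:10223656-10223905 on the plus strand.
Tph1, first start: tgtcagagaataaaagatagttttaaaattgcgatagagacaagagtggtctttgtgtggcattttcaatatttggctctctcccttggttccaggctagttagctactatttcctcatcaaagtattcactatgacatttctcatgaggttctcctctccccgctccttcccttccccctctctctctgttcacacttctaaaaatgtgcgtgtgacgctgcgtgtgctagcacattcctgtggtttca
Tph1, second start: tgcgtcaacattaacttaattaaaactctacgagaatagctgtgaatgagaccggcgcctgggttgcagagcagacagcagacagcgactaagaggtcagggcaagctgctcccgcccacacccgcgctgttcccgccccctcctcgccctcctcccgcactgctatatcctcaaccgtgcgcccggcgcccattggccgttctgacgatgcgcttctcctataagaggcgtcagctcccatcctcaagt
Tph2: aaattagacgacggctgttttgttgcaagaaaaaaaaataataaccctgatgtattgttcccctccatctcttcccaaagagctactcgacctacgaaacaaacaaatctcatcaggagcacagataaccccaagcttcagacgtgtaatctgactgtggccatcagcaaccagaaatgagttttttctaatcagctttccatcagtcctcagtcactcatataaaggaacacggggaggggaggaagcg
Prlr, second start: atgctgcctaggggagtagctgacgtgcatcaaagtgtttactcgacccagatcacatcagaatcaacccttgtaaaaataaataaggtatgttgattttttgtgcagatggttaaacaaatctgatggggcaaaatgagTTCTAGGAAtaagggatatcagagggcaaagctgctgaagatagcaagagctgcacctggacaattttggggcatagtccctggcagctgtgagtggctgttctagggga
The motif occurred in 1 of the 16 start regions, the second of Prlr, as TTCTAGGAA with its first base at position -110 from the start. Of all 32851 start regions of this length 7.02% held it. The regions of Tph1, Tph2, Ddc, Slc18a2, Ghr, Cish, Stat5a and Stat5b held no match, which says only that these letters are not in those bases. The 2 starts of Tph1 differed in CpG content, with 5 CpG in the first and 19 in the second, beside a median of 6 (quartiles 2 and 16) over all start regions. Counts per gene do not tell which start was used.

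Tph1 (ENSMUSG00000040046, chr7:46294065-46321961, minus strand, GRCm39) was close to the limit of detection in controls. Female controls had 13.5, 30.5 and 25.7 normalized counts and female knockouts 264, 166 and 172. Every knockout library lay several times above the highest control. The log2 fold change was 3.10 (SE 0.34, limma adjusted p = 0.00112), 8.56-fold, the 37th highest of 18142 genes. Male controls had 9.27, 106 and 18.7 and male knockouts 451, 239 and 269. The groups did not overlap, but male control 2 was several times above the other controls. The male log2 fold change was 3.47 (SE 0.77, limma adjusted p = 0.0201), 11.1-fold, the 89th highest of 18010 genes.

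These levels rest on few reads in controls. In females 65 control reads stood against 659 knockout reads, a depth-scaled ratio of 8.76 with a 95% counting interval of 6.78 to 11.5, and in males 90 against 1028, a ratio of 10.8 (8.70 to 13.6). Those intervals cover counting error only, and pooled reads give less weight to male control 2, which had the fewest reads. The ratio of male mean normalized counts was 7.17, below that interval. In the male controls the 90 reads were 11, 53 and 26, and in male control 2 a single read was worth 2.00 normalized counts. Without that library the male log2 fold change was 4.44, and without male control 1 it was 2.75. The male call was lost without control 3 (limma adjusted p = 0.0722), knockout 1 (0.0955) or knockout 3 (0.0505), and the female call held in all 16 alternatives, with a log2 fold change of 2.39 under the acinar covariate. The authors' deposited table gives log2 fold changes of 3.11 in females and 2.89 in males. Mast cells express Tph1 too, and of 8 mast cell markers 3 had an entry in the female table and 2 in the male table. Their summed normalized counts were 93.2 to 391 in female controls against 125 to 170 in female knockouts, and 52.3 to 158 against 96.1 to 149 in males, ranges that overlapped in both sexes. In each sex only 1 of the 8 reached the expression minimum. In females this was Hdc, with 91.1, 389 and 102 in controls and 158, 135 and 124 in knockouts. The female sum was thus nearly all Hdc, and the comparison rests on 1 gene.

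Tph2 (ENSMUSG00000006764, chr10:114914546-115020927, minus strand), the neuronal hydroxylase gene, had more counts per kb of exon than Tph1 in every library, though fewer plain counts in female knockout 1 and male knockout 1. Its normalized counts were 120, 121 and 155 in female controls and 210, 257 and 294 in female knockouts. All 3 knockout libraries were above all controls. Tph2 rose by a log2 fold change of 0.93 (SE 0.20, limma adjusted p = 0.0134), 1.91-fold. This call was lost with the acinar level as a covariate (0.0821), without female knockout 2 (0.0580) and in a fit over all 12 libraries (0.0614). In males Tph2 was at 122, 150 and 238 in controls and 258, 354 and 527 in knockouts. The groups did not overlap, and the log2 fold change of 1.15 (SE 0.35, 95% interval 0.35 to 1.95, limma adjusted p = 0.0640) missed the threshold. It passed with DESeq2 on the recovered reads (adjusted p = 0.0165), with the acinar covariate (0.0321), over all 12 libraries (0.0159) and without male control 3 (0.04997). The authors' deposited table gives 1.15 for Tph2 in males with a DESeq2 adjusted p of 0.0140. Groups did not overlap for 4 of the 10 genes in females, 3 higher and 1 lower, where 39.3% of all genes tested showed that (19% higher and 20.3% lower). In males they did not overlap for 6 of 10, 3 higher and 3 lower, where 35.5% showed it (18.6% higher and 16.9% lower).

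Ddc (ENSMUSG00000020182, chr11:11764101-11848144, minus strand), whose product makes serotonin from 5-hydroxytryptophan and dopamine from L-DOPA, went the other way. Male controls had 4906, 4289 and 7349 normalized counts and male knockouts 2331, 1679 and 2859. No knockout library reached the lowest control. Ddc fell in males by a log2 fold change of -1.26 (SE 0.24, limma adjusted p = 0.0103), 2.40-fold, and stayed called in all 16 alternatives. In females it was at 4922, 6160 and 4019 in controls and 2172, 2791 and 4064 in knockouts. Knockout 3 overlapped the controls. The female log2 fold change was -0.77 (SE 0.25, 95% interval -1.36 to -0.18, limma adjusted p = 0.0719), which was not called. It was called with DESeq2 (adjusted p = 0.0116) and without female knockout 3 (limma adjusted p = 0.0189). The authors' deposited table gives -0.74 with an adjusted p of 0.00971 in females.

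The vesicular transporter genes were not called. Slc18a1 (ENSMUSG00000036330, chr8:69490363-69541887, minus strand), the form of endocrine cells, varied widely within groups, with 697, 1172 and 414 in the female controls against 184, 373 and 659 in the knockouts, and among males 350, 1106 and 857 against 421, 409 and 709. The groups overlapped in both sexes. Slc18a1 had a log2 fold change of -0.97 in females (95% interval -2.32 to 0.39, limma adjusted p = 0.285) and -0.48 in males (-1.42 to 0.46, 0.486). In females the interval reaches down to 0.200 times the control level. Slc18a2 (ENSMUSG00000025094, chr19:59249328-59284444, plus strand), a form best known from monoamine neurons but not limited to them, was steadier. It had 274, 319 and 291 normalized counts in the female controls against 188, 279 and 249 in the knockouts, and among males 201, 168 and 199 against 162, 156 and 135. All male knockouts were below all male controls, while the female groups overlapped. Slc18a2 had a log2 fold change of -0.32 in each sex (limma adjusted p = 0.261 in females and 0.492 in males), with intervals from -0.74 to 0.10 and from -0.95 to 0.31.

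Prlr (ENSMUSG00000005268, chr15:10177324-10349266, plus strand) fell in both sexes. Its normalized counts were 10333, 10496 and 10802 in female controls and 3408, 4548 and 5035 in female knockouts. The highest knockout was far below the lowest control. This was a log2 fold change of -1.30 (SE 0.14, limma adjusted p = 0.00107), a 2.47-fold fall. In males Prlr was at 7080, 10127 and 9065 in controls and 3588, 2687 and 4020 in knockouts. Again the groups stood well apart. The male log2 fold change was -1.36 (SE 0.18, limma adjusted p = 0.00295), a 2.56-fold fall. The call held in all 16 alternatives in each sex, with log2 fold changes between -1.42 and -1.14 in females and between -1.50 and -1.19 in males.

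Ghr (ENSMUSG00000055737, chr15:3347242-3612974, minus strand), the related receptor gene on the same chromosome, rose. Female controls had 4980, 4729 and 5469 normalized counts and female knockouts 5897, 7264 and 8007. The groups did not overlap, and the lowest knockout was close to the highest control. The log2 fold change was 0.47 (SE 0.13, limma adjusted p = 0.0335), 1.39-fold. That call was lost in 6 of 16 alternatives, which were the acinar covariate (0.106), the fit over all 12 libraries (0.0769) and leaving out female control 1 (0.0696), control 2 (0.116), knockout 2 (0.117) or knockout 3 (0.101). Male controls had 4679, 4594 and 5908 and male knockouts 9762, 6790 and 9806. Every male knockout was above every control. In males Ghr rose by a log2 fold change of 0.79 (SE 0.17, limma adjusted p = 0.0183), 1.72-fold, and the call was lost without male control 2 (0.0511), knockout 1 (0.0902) or knockout 3 (0.0562).

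Ghr is also expressed outside the endocrine cells of islets, and markers of other cell types were read beside it. Over all genes tested, 6.08% were called higher in males and 9.9% in females. Of 8 endothelial markers 4 were called higher in males (Pecam1, Kdr, Emcn and Plvap), and their summed share of counts was 0.0363 to 0.0407% in male controls and 0.0559 to 0.0733% in male knockouts. In females limma called 0 of 8, with 1 at an unadjusted p below 0.05 and 1 called by DESeq2, and their share was 0.0507 to 0.0594% in controls and 0.0630 to 0.0829% in knockouts. Stellate markers were at 0.0113 to 0.0181% in male controls and 0.0224 to 0.0248% in male knockouts, with 1 of 8 called higher. In females they were at 0.0190 to 0.0356% and 0.0223 to 0.0382%, with 1 of 8 called higher. Each of these 16 endothelial and stellate markers had counts in every library. The summed share of duct markers was lower in male knockouts, at 0.0630 to 0.0958% against 0.0995 to 0.150% in male controls. Their median log2 fold change in males was 0.34. Macrophage marker shares had overlapping ranges in both sexes. The part of any of these cells in the rise of Ghr was not tested.

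**Figure D2:**
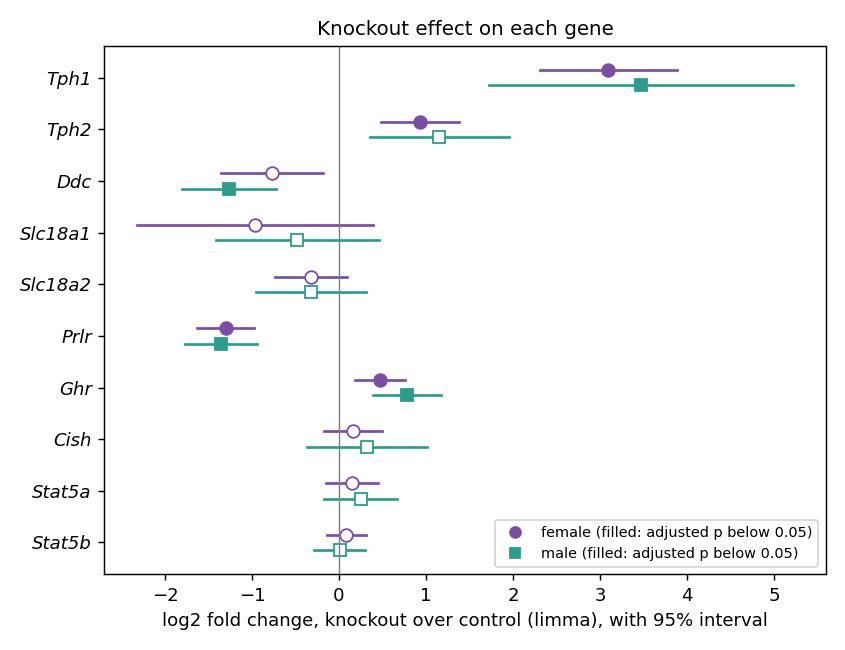
Log2 fold change of each gene, knockout over control, with its 95% interval from limma, in females (circles) and males (squares). Filled symbols have an adjusted p below 0.05: Tph1, Tph2, Ghr and Prlr in females and Tph1, Ghr, Ddc and Prlr in males.

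The STAT5 genes and their feedback target showed no called change. Cish (ENSMUSG00000032578, chr9:107173225-107179983, plus strand) had 753, 705 and 565 normalized counts in female controls and 726, 688 and 843 in female knockouts. It had 474, 876 and 1071 in male controls against 932, 748 and 1250 in male knockouts. The groups overlapped in both sexes. The log2 fold change of Cish was 0.16 in females (limma adjusted p = 0.472) and 0.32 in males (0.533). Its 95% interval was -0.17 to 0.49 in females, or 0.890- to 1.41-fold, and -0.37 to 1.02 in males, or 0.773- to 2.02-fold. A change of Cish as large as that of Prlr or Tph1 lay outside these intervals.

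Stat5a (ENSMUSG00000004043, chr11:100750177-100775995, plus strand) had 648, 702 and 527 normalized counts in the female controls against 683, 700 and 687 in the knockouts, and among males 603, 493 and 526 against 650, 726 and 556. Stat5b (ENSMUSG00000020919, chr11:100671557-100741550, minus strand), whose locus ends 8627 bases before Stat5a starts, had 1949, 2172 and 1916 in the female controls against 1983, 2258 and 2164 in the knockouts, and among males 2138, 2646 and 2416 against 2192, 2532 and 2511. The groups overlapped for both genes in both sexes. The log2 fold change of Stat5a was 0.15 in females (95% interval -0.15 to 0.45, limma adjusted p = 0.463) and 0.25 in males (-0.17 to 0.67, 0.420). For Stat5b it was 0.09 (-0.14 to 0.31, 0.589) and 0.01 (-0.29 to 0.30, 0.973). These genes are close relatives, and how reads that fit both were counted is not given in the sources used here.

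Levels of different genes were compared per kilobase of exon. The length of a gene was the union of all its exons in GENCODE M21 (6172 bases for Tph1 and 2879 for Tph2). Transcripts present may be shorter, so the order of genes depends on these lengths. In female controls Ddc was the highest at 1128 normalized counts per kb, followed by Prlr at 687, Ghr at 559 and Stat5b at 363, each with a range over 3 libraries apart from the next. Slc18a1 at 141, Cish at 105 and Stat5a at 87.7 followed with ranges that overlapped between neighbours. Slc18a2 at 56.4 and Tph2 at 45.9 overlapped as well, and Tph1 at 3.76 was the lowest. In female knockouts the order was Ghr at 779, Ddc at 675, Stat5b at 385, Prlr at 282, Cish at 117, Stat5a at 96.7, Tph2 at 88.1, Slc18a1 at 75.03, Slc18a2 at 45.7 and Tph1 at 32.5. Ranges of Ghr and Ddc overlapped there, as did those of neighbours from Stat5a down to Tph1.

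In male controls Ddc was at 1236 normalized counts per kb, Prlr at 571, Ghr at 559, Stat5b at 433, Slc18a1 at 143, Cish at 126, Stat5a at 75.8, Tph2 at 59.1, Slc18a2 at 36.2 and Tph1 at 7.22. Neighbouring ranges overlapped for Prlr and Ghr and along the run from Slc18a1 to Tph2. In male knockouts Ghr was at 971, Ddc at 513, Stat5b at 435, Prlr at 224, Cish at 152, Tph2 at 132, Slc18a1 at 94.95, Stat5a at 90.3, Tph1 at 51.8 and Slc18a2 at 28.9. Ghr, Tph1 and Slc18a2 stood apart from their neighbours in that group, as Stat5b did from Prlr. Ghr was thus the most abundant of the 10 transcripts per kb in both knockout groups and Ddc in both control groups. Tph1, the lowest of all in each control group, was above Slc18a2 in male knockouts. Without male control 2 the male control means were 585 for Ghr, 526 for Prlr, 120.4 for Cish, 112 for Slc18a1 and 2.26 for Tph1, so that Ghr stood before Prlr and Cish before Slc18a1, with ranges that overlapped in each pair.

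Ratios between gene pairs within a library do not depend on its scaling. Prlr per kb over Ghr per kb was 1.22, 1.31 and 1.17 in female controls and 0.341, 0.370 and 0.371 in female knockouts. In males the ratio was 0.893, 1.30 and 0.906 in controls and 0.217, 0.234 and 0.242 in knockouts. The highest knockout ratio was below every control ratio of its sex. Without division by length, the male control ratios of Prlr over Ghr were 1.51, 2.20 and 1.53. Tph1 per kb over Tph2 per kb was 0.0523, 0.118 and 0.0772 in the female controls against 0.586, 0.302 and 0.272 in the knockouts, and among males 0.0354, 0.330 and 0.0365 against 0.815, 0.315 and 0.238. These groups did not overlap in females, and in males control 2 lay within the knockout range. No library had more Tph1 than Tph2 per kb. Without division by length, the Tph1 over Tph2 ratio was 1.26 in female knockout 1 and 1.75 in male knockout 1.

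**Figure D3:**
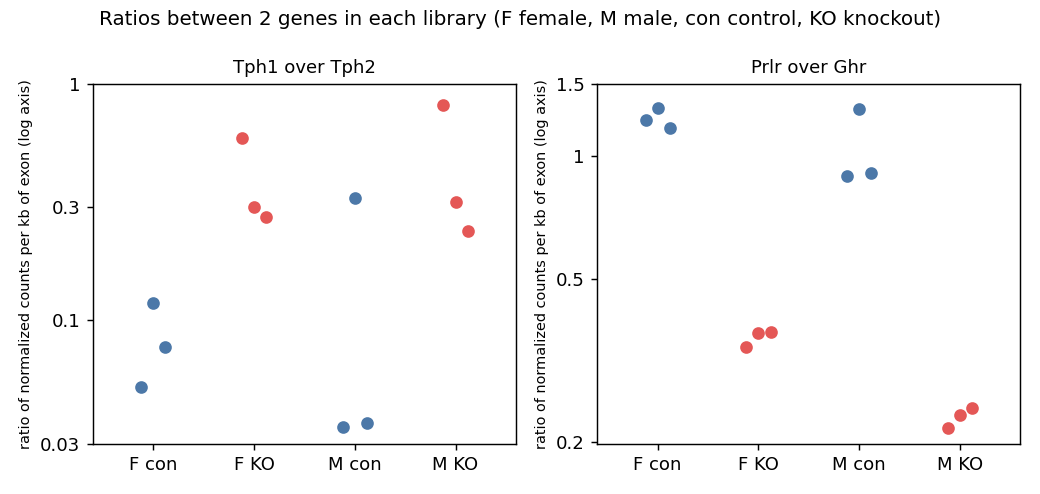
Ratio of normalized counts per kb of exon within each library (log axes), Tph1 over Tph2 on the left and Prlr over Ghr on the right, with blue points for controls and red points for knockouts. The Prlr over Ghr ratio was 0.893 to 1.31 in the controls and 0.217 to 0.371 in the knockouts, and 1 male control has a Tph1 over Tph2 ratio within the male knockout range.

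Male control 2, the library that stood apart, was left out of a repeat of the male fit. There the log2 fold change was 4.44 for Tph1 (limma adjusted p = 0.00362), 1.09 for Tph2 (0.107), -1.42 for Ddc (0.0162), -0.14 for Slc18a1 (0.866) and -0.40 for Slc18a2 (0.329). It was -1.24 for Prlr (0.00915), 0.72 for Ghr (0.0511), 0.42 for Cish (0.509), 0.19 for Stat5a (0.556) and 0.0823 for Stat5b (0.731). Directions were those with all libraries, and Ghr was the gene whose call was lost.

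The knockout effect was compared between the sexes by an interaction term in a fit to the 12 libraries together. With limma 0 of the 10 genes were called, where 19 of 17330 genes or 0.11% were, and 0 had an unadjusted p below 0.05. DESeq2, edgeR and the other alternatives also called 0 of 10. The difference in log2 fold change, male minus female, was 0.37 for Tph1 (limma adjusted p = 0.926, and 1.34 with 0.432 without male control 2), 0.22 for Tph2 (0.899) and -0.49 for Ddc (0.754). It was -0.05 for Prlr (0.963) and 0.31 for Ghr (0.750). That Ddc was called in males alone and Tph2 in females alone is therefore no shown difference between the sexes.

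The surrounding pathway was read from 3 lists of 69 other genes. In females 16 of the 57 tested genes were called, 9 higher and 7 lower, and in males 13 of 52, 3 higher and 10 lower, beside the 20.6% and 13.2% of all genes given above. Leaving out female control 2 gave 8 calls, female knockout 1 gave 10, female knockout 2 gave 7 and male knockout 1 gave 5, and the acinar covariate gave 9 in females. The median log2 fold change of the tested list genes was -0.13 in females and -0.19 in males. In both sexes Htr1d, Slc7a5 and Ivd were called higher and Htr3a, Igf1r, Ptpn2, Ccnd1 and Ccnd2 lower, and no gene was called in opposite directions. Among genes of serotonin supply, breakdown and reception 4 of 21 rose and 2 fell in females, and 2 of 16 rose and 3 fell in males. Among JAK2 and STAT5 signalling genes 4 of 20 rose and 3 fell in females, and in males 3 of 20 fell and 0 rose with limma (1 higher at an unadjusted p below 0.05, and 1 with DESeq2). Of 16 genes tied to the lactogen response of islets, 1 rose and 2 fell in females and 1 rose and 4 fell in males. That list does not separate genes that lactogens raise from genes that they lower. The counts of each list also stand beside 20.6% of all genes called in females and 13.2% in males.

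**Figure D4:**
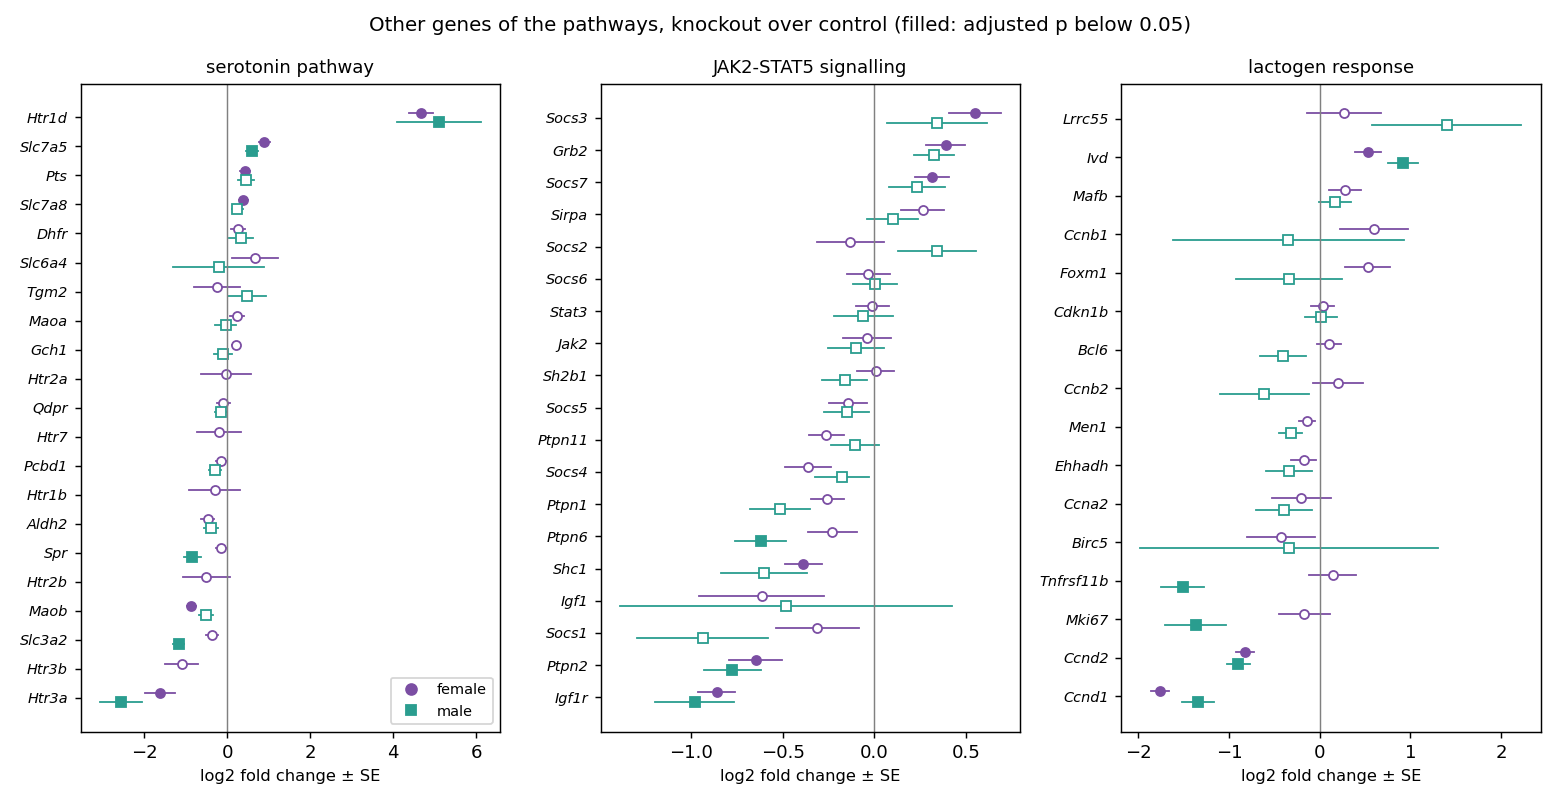
Log2 fold changes (knockout over control) with their SE of genes of the 3 lists, in females (circles) and males (squares), filled where the adjusted p was below 0.05. Htr1d lies far to the right in both sexes, Htr3a and Ccnd1 lie to the left, and most genes have open symbols.

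Htr1d encodes an inhibitory serotonin receptor that couples to Gi proteins. It was nearly undetected in controls, with 5.18, 7.37 and 4.47 normalized counts in females and 0.843, 0 and 2.15 in males, against 171, 191 and 142 in female knockouts and 86.0, 47.1 and 55.9 in male knockouts. No control library came near a knockout library. Female reads were 16 in controls and 539 in knockouts, a depth-scaled ratio of 29.1 (95% counting interval 17.8 to 51.3), with a log2 fold change of 4.67 (limma adjusted p = 1.96e-04, and 4.02 with 5 added in place of 1), the 8th highest of all genes. The male controls had 4 reads in all (1, 0 and 3) and the knockouts 203, a ratio of 48.0 (18.5 to 178), with a fitted log2 fold change of 5.11 (limma adjusted p = 0.0118) that depends on the added 1 (3.48 with 5 added). The male call was lost without knockout 1 (0.129), knockout 2 (0.0591) or knockout 3 (0.0672).

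Htr3a, which encodes the subunit that forms the serotonin-gated cation channel, fell. It had 249, 341 and 149 normalized counts in the female controls against 100, 49.8 and 84.2 in the knockouts, and among males 109, 232 and 264 against 30.6, 48.0 and 20.1. The groups did not overlap in either sex. Htr3a fell by a log2 fold change of -1.62 in females (limma adjusted p = 0.0175, and -2.39 with the acinar covariate) and -2.56 in males (0.0121). The female call was lost without female control 1 (0.0553), control 2 (0.0552) or knockout 2 (0.0560), and the male call without male control 3 (0.0547) or knockout 1 (0.0512). Htr2b, the Gq-coupled receptor through which serotonin drives beta cell growth in pregnancy, was near the detection limit, with 9.32, 11.6 and 15.7 in female controls and 16.5, 3.32 and 9.17 in female knockouts (log2 fold change -0.50, limma adjusted p = 0.588). It was below the expression minimum in males.

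Of the genes that supply and remove serotonin, Slc7a5, which encodes the large neutral amino acid transporter that carries tryptophan, rose by a log2 fold change of 0.89 in females (limma adjusted p = 0.00335) and 0.60 in males (0.0301). The male call of Slc7a5 was lost without control 1 (0.0736), control 2 (0.0772), knockout 1 (0.103) or knockout 2 (0.0804). Its partner chain gene Slc3a2 fell by 1.17 on the log2 scale in males (0.00204), with 22183, 20794 and 24249 normalized counts in controls and 8749, 11934 and 9412 in knockouts. In females Slc3a2 was at -0.37 (0.121, or 0.0211 without female control 3), and the interaction of -0.80 was not called with limma (adjusted p = 0.274) but was with DESeq2 (0.0323). Maob, a monoamine oxidase gene, had 8246, 7232 and 7551 normalized counts in female controls and 3868, 4254 and 4585 in female knockouts, a log2 fold change of -0.86 (limma adjusted p = 0.00135). In males Maob was at -0.50 (0.0778), which passed with DESeq2 (0.0323), over all 12 libraries (0.0224) and without male knockout 3 (0.0252). Maoa, the oxidase that prefers serotonin, was at 0.23 in females (0.368) and -0.03 in males (0.956), and the plasma membrane transporter gene Slc6a4 stayed between 3.50 and 29.5 normalized counts in all libraries. Genes for the hydroxylase cofactor tetrahydrobiopterin were split, with Pts higher in females (0.43), Spr lower in males (-0.84) and Gch1 not called in either sex. Slc7a8, another amino acid transporter gene, was also called higher in females (0.39). The calls of Pts, Slc7a8 and Spr were lost in most fits without 1 library, for Pts without any female library but knockout 1 (adjusted p up to 0.133), for Slc7a8 without control 2 or any knockout (up to 0.120), and for Spr without male control 1, control 3, knockout 1 or knockout 3 (up to 0.116). Pts (0.186) and Slc7a8 (0.0967) were also lost with the acinar covariate, and Pts over all 12 libraries (0.128).

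**Figure D5:**
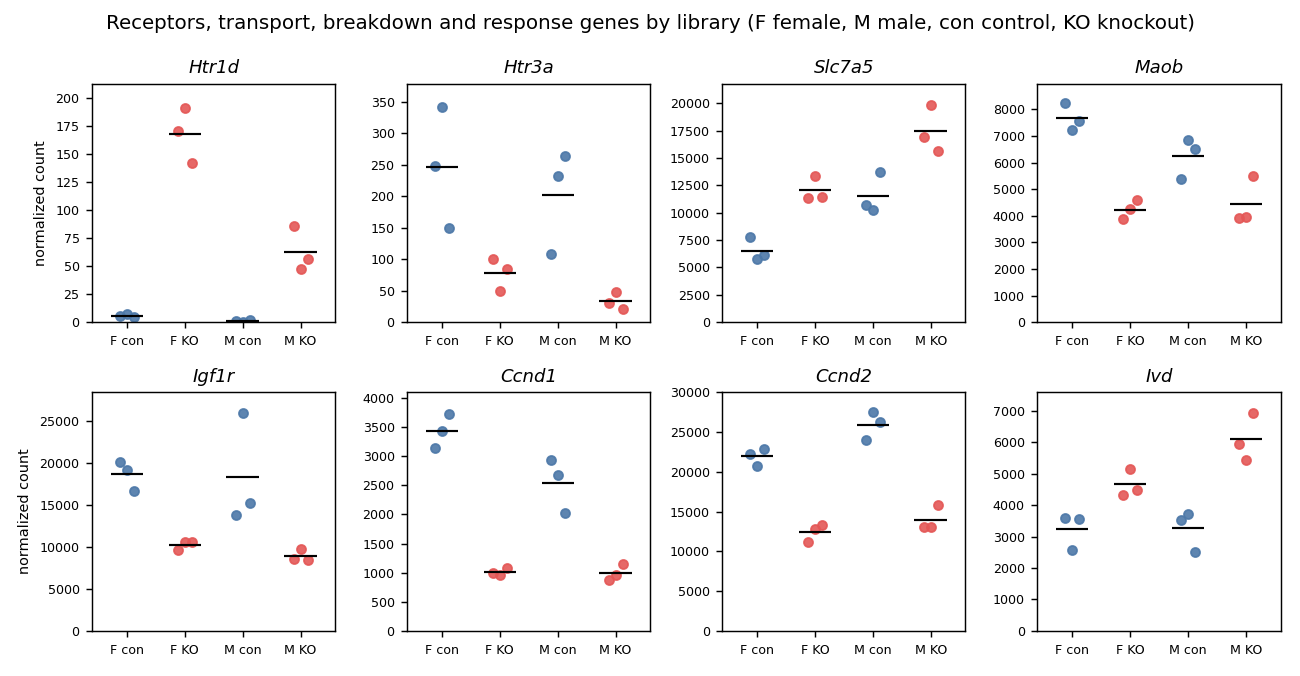
Normalized counts (linear axes from 0) of 8 genes of the 3 lists in each library, with blue points for controls, red points for knockouts and a bar at the mean. Control and knockout points do not overlap in either sex except for Maob in males, where the highest knockout (5505) exceeds the lowest control (5387).

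Downstream of the receptors, Jak2 was at a log2 fold change of -0.04 in females (limma adjusted p = 0.858) and -0.10 in males (0.699). Igf1r, the receptor for the growth hormone effector IGF-1, fell in both sexes (-0.86 in females, -0.98 in males), as did Ptpn2, which encodes a phosphatase that acts on JAK and STAT proteins (-0.65 and -0.77). The male call of Igf1r was lost without knockout 1 (limma adjusted p = 0.0829) or knockout 3 (0.0555), and that of Ptpn2 without female control 2 (0.0617), female knockout 2 (0.0515) or male knockout 1 (0.0617), or in females with the acinar covariate (0.0598). Of the feedback genes, Socs3 (0.55) and Socs7 (0.32) were called higher in females, and Socs2, a growth hormone target, was at -0.13 in females (0.669) and 0.34 in males (0.335). Without any 1 of the female libraries the call of Socs7 was lost (up to 0.177), and that of Socs3 without any but knockout 3 (up to 0.0860). With the acinar covariate the female calls of Socs3 (0.297), Socs7 (0.216), Grb2 (0.273) and Shc1 (0.457) were lost, and in a fit over all 12 libraries those of Socs3 (0.183), Socs7 (0.131) and Shc1 (0.262). The adapter genes Grb2 (0.39) and Shc1 (-0.39) in females and the phosphatase gene Ptpn6 (-0.62) in males were called. The call of Grb2 was lost (adjusted p up to 0.134) without knockout 1, knockout 2, control 2 or control 3, that of Shc1 without any knockout (up to 0.0889), and that of Ptpn6 (up to 0.0935) without knockout 1, knockout 3, control 1 or control 3. Of the hormones, Gh had 0 to 6.09 normalized counts in female libraries and 0 to 10.9 in male libraries, with groups that overlapped. Prl had no entry in the female table, and no value of Prl was used here.

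Of the lactogen response list, 2 cyclin genes fell in both sexes. Ccnd1 fell by 1.76 on the log2 scale in females (limma adjusted p = 1.82e-04) and 1.34 in males (0.00247), and Ccnd2 by 0.82 (0.00157, and 0.0502 with the acinar covariate) and 0.90 (0.00338). These genes encode D-type cyclins that start the cell cycle in beta cells. Tnfrsf11b, which encodes the lactogen-induced decoy receptor osteoprotegerin, had 513, 844 and 737 normalized counts in male controls against 216, 258 and 246 in male knockouts, a log2 fold change of -1.51 (limma adjusted p = 0.00490). In females Tnfrsf11b was at 0.14 (0.747), and the interaction of -1.65 was called with DESeq2 (adjusted p = 0.00104) but not with limma (0.142). Ivd, a leucine breakdown enzyme gene, rose in both sexes (0.54 with adjusted p = 0.0333, and 0.92 with 0.00864), and the proliferation marker gene Mki67 fell in males (-1.37, limma adjusted p = 0.0276). The female call of Ivd was lost without control 2 (0.0840) or any knockout (0.0624 to 0.125) and over all 12 libraries (0.0539), and that of Mki67 without any male library but knockout 3 (0.0529 to 0.0735).

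The genes that tracked a member most closely across the 12 libraries were sought among 12163 genes by Pearson correlation of log2 values after the mean of each table was subtracted. For Tph1 they were Vwa5b1 (r = 0.968), Tab2 (0.965) and Cdk13 (0.963). For Prlr they were Arpc5 (0.988), Ffar1 (0.987), which encodes a fatty acid receptor of beta cells, and Ccnd2 (0.986). For Ddc they were Ap3s1 (0.961), Eid1 (0.955) and Arf4 (0.953), and for Cish, which did not separate the groups, Rab10 (0.882), Mycbp (0.876) and Rprd1b (0.856). The points are libraries of 2 genotypes and share that split, and each gene was picked as the highest of many, so these values are a description.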

How the data were processed

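RNA of hand-picked islets was measured in 12 libraries, grouped by the labels' genotype and sex. Per the submitters' processing notes, the tools were FastQC 0.11.9, Trim Galore 0.6.7, STAR 2.7.3a and featureCounts (no version), with GRCm39 (mm39). Strandedness, annotation release and the handling of reads shared by genes are not given in the sources used here. The signal values deposited by the authors, 1 table per sex, were normalized counts per gene. The log2 fold changes and p-values deposited by the authors came from DESeq2, per the file's description sheet. The test score that the authors deposited with them (the Wald statistic) was not used.

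After removal of 79 and 73 repeated entries there were 24631 female and 24474 male genes. The design foresaw limma on normalized values. Values were taken as log2(normalized count + 1), the test covered genes whose mean over the table was 10 or more, and limma-trend with robust empirical Bayes (limma 3.58.1, R 4.3.3) was fitted to each sex across all genes, with Benjamini-Hochberg adjustment over all of them. The pseudocount understates changes of low genes. Dividing by each library's smallest step gave whole reads for 100% of the values (tolerance 0.001). On these reads edgeR 4.0.16 called 3734 genes in females and 2336 in males, beside 3745 and 2372 with limma, and DESeq2 1.42.0 called 4399 and 3531. The other alternatives were quantile scaling, another pseudocount or minimum, a replicate block, the acinar marker level as a covariate, 1 library left out, and all 12 libraries in 1 fit. Intervals are 95%. Depth was 19759712 to 56086810 reads, and count ratios have exact counting intervals that cover counting error only.

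The 10 genes and the lists around them were chosen with earlier results of these data known, and no list has a test of its own. Of the list genes, 1 is counted but not reported here by name. Named genes were the 10, Rnf20, the called genes with the largest changes of each of 3 lists (at most 4 per sex and direction), 9 genes taken in any case, and the 3 genes most correlated with each of Tph1, Ddc, Prlr and Cish. Gch1, Socs2 and the endothelial, stellate, duct and macrophage markers beside Ghr were added after values were seen.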

Additional observations from a re-analysis of the deposited data

How the results depend on the processing

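Prlr in both sexes, Tph1 in females and Ddc in males were called under all 16 alternatives. Of the 10 genes, the number called was 2 in females with the acinar covariate and 2 with all 12 libraries in 1 fit, and without 1 library it was 2 to 4 in females and 2 to 4 in males. Of the other pathway genes 9 were called in females with the acinar covariate, and without 1 library 7 to 15 in females and 5 to 12 in males. No alternative called a sex difference for any of the 10 genes (0 of 10). Scaling moved the median of all genes by less than 0.1 on the log2 scale.

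Some log2 fold changes that were not called changed sign. With the acinar covariate they were -0.67 for Slc6a4, -0.0236 for Stat5a, -0.0018 for Stat5b and -0.0616 for Tnfrsf11b in females and 0.0711 for the sex difference of Prlr. Quantile scaling gave 0.0043 for Maoa in males, edgeR with TMM gave -0.0039 for Stat5b in males, and a pseudocount of 5 gave 0.0018 for the sex difference of Slc18a2. The sex difference of Tph1 was -0.24 with DESeq2, -0.18 with edgeR and TMM, and -0.15 with edgeR and the deposited size factors. The cause of these sign changes was not tested. Without 1 library, log2 fold changes ranged in females from -0.96 to 0.0463 for Htr2b, -0.16 to 0.0481 for Jak2 and -0.0344 to 0.40 for Tnfrsf11b. In males they ranged from -0.0209 to 0.57 for Cish, -0.19 to 0.0159 for Jak2, -0.20 to 0.22 for Maoa, -0.84 to 0.46 for Slc6a4 and -0.0714 to 0.0823 for Stat5b. Sex differences ranged from -0.18 to 0.40 for Cish, -0.22 to 0.11 for Prlr, -0.0057 to 0.93 for Slc18a1, -0.16 to 0.12 for Slc18a2, -0.35 to 1.34 for Tph1 and -0.0471 to 0.49 for Tph2.

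Deviations of same-numbered libraries correlated at -0.0408, -0.276 and -0.135 in females and at 0.121, 0.00966 and 0.153 in males. Differently numbered libraries reached 0.248 in females and 0.0843 in males. With 3 libraries per group these values cannot decide whether the replicate numbers pair the samples. The numbers come from the sample titles, and the submitters' own library names carry other numbers for every knockout library. With the number as a replicate block, 4 of the 10 genes were called in females and 5 in males, and 12 and 12 of the other pathway genes, and the sex difference count stayed at 0. Tph2 in males passed under the block (adjusted p = 0.0314), and Htr3a (0.0514), Ivd (0.0801), Pts (0.0571), Slc7a8 (0.0547) and Socs7 (0.0680) in females and Slc7a5 in males (0.0586) did not.

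Depth limits Tph1, Htr1d, Htr2b, Slc6a4 and Gh, which had few reads in controls.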
